A study of Homo sapiens with 20 samples.

Results

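Genes that encode transcription factors of islet alpha and delta cells were followed through human pancreatic differentiation with and without the RNA demethylase ALKBH5. They were chosen by name: the alpha cell factors *IRX1*, *IRX2* and *POU3F4* and the delta cell factor *HHEX*. All 4 genes were found, each as 1 Ensembl identifier among the 60624 listed for islet-like organoids and the 60623 listed for pancreatic progenitors. The cells came from the MEL1 INS-GFP/W human embryonic stem cell line, a reporter line in which the insulin promoter of the cell drives green fluorescent protein. WT is this reporter line with *ALKBH5* intact. A5-KO is a homozygous *ALKBH5* knockout line made with CRISPR-Cpf1 in the first exon and grown from a picked colony. Every A5-KO library therefore carries the same single clone. RNA-seq covered 2 stages. Human islet-like organoids (hILOs) were measured in 2 WT and 2 A5-KO libraries, for which the labels describe media up to day 22; the study's methods go on to a later medium, and the day of collection was not settled. Pancreatic progenitors (PPs), grown up to day 14, were treated with 1 μg/ml of actinomycin D (Act D), a drug that blocks transcription, for 0, 1, 2 or 3 h, with 2 libraries for each genotype and time and 16 in all. The 0 h libraries are the PPs before the block.

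Alpha cells of the islet secrete glucagon and delta cells secrete somatostatin. *IRX1* and *IRX2* encode homeodomain proteins of the Iroquois family and are known as alpha cell genes in human islets. *POU3F4*, also called BRN4, encodes a POU-domain protein that binds the glucagon gene promoter. *HHEX* encodes a homeodomain protein that delta cells need, and it is also active in the early foregut and the liver bud, well before delta cells form. ALKBH5 removes N6-methyladenosine (m6A) from mRNA, and loss of the enzyme leaves the mark in place.

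On the GRCh38 build, *IRX2* (ENSG00000170561) spans 2745845 to 2751677 on the minus strand of chromosome 5, and *IRX1* (ENSG00000170549) spans 3595832 to 3601403 on the plus strand of the same chromosome, 844.2 kb away. No other protein-coding gene lies between them. The long noncoding RNA gene *IRX2-DT* (ENSG00000186493; 2752131 to 2755397 in GENCODE) is read in the opposite direction from a start next to that of *IRX2*. *HHEX* (ENSG00000152804) spans 92689955 to 92695647 on the plus strand of chromosome 10, and *POU3F4* (ENSG00000196767) spans 83508290 to 83512127 on the plus strand of the X chromosome. *HHEX*, *IRX1* and *IRX2* have 4 exons each in their MANE transcript and *POU3F4* has 1. A long noncoding RNA gene on the other strand overlaps *IRX1*, and a gene of unsettled type on the other strand overlaps *POU3F4*. Reads of overlapping genes can be told apart only where strand is used, and whether the counting used strand is not given in the sources used here. No annotated gene overlaps *IRX2*, *HHEX* or *IRX2-DT*.

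The sequences next to the start sites of the 3 members detected in hILOs are shown because *IRX2* shares its stretch with *IRX2-DT*, whose RNA was read in the same libraries. They are RefSeq sequences of GRCh38.p14, written 5′ to 3′ towards the start site, with the motif CCAAT on either strand (ATTGG on the other) in capitals. The RefSeq start sites of *IRX2* and *IRX2-DT* are 215 bases apart (chr5:2751678-2751892, minus strand), and the 250 bases before *IRX1* (chr5:3595582-3595831) and *HHEX* (chr10:92689705-92689954) are on the plus strand.
between IRX2-DT and IRX2: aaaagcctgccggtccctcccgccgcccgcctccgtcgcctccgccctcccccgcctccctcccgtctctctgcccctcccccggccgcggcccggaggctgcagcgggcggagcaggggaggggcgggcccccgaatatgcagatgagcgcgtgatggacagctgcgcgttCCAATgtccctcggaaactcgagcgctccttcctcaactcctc
IRX1: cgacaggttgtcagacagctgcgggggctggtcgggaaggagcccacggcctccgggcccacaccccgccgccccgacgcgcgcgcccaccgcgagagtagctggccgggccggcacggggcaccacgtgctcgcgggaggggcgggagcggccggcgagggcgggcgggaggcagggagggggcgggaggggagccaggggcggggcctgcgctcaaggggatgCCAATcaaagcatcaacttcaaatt
HHEX: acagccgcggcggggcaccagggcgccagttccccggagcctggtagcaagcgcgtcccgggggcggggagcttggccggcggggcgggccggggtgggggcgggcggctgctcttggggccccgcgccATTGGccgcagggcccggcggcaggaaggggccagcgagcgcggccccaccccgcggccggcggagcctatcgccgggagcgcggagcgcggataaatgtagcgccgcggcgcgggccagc

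Each of these stretches holds 1 CCAAT, whose first printed base lies 43 bases before the *IRX2* start site, 25 before that of *IRX1* and 121 before that of *HHEX*. Among all 35116 RefSeq windows of 300 bases (250 before the start site and 50 after), 34.6% hold CCAAT on either strand. GGGCGG was found 7 times in the *IRX1* window, 4 times in that of *IRX2* and 4 times in that of *HHEX*, against at least once in 45.0% of all windows. TATAAA was absent from the windows of all 4 members and is in 11.5% of all windows. The *IRX1*, *IRX2* and *HHEX* windows are GC-rich, at 76.0%, 73.3% and 80.3% against a median of 58.7%. They hold 38, 34 and 44 CpG, against a median of 14. The *POU3F4* window, at 59.3% GC with 19 CpG, is closer to the median. A match is a description of the letters only.

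In hILOs, *IRX1*, *IRX2* and *HHEX* mRNAs were all lower in A5-KO, each to between 40.6% and 42.9% of its WT level, and *POU3F4* mRNA was close to 0 in both genotypes. Levels are in TPM, a measure scaled to gene length and library total that can be compared between genes. *IRX1* measured 7.10 and 5.94 TPM in the WT libraries against 2.49 and 2.84 TPM in the A5-KO libraries. Both A5-KO libraries lay below both WT libraries, which was also so for 37.1% of the 17300 genes tested. The difference was -1.03 on the log2(TPM + 1) scale (standard error 0.16, limma adjusted *p* = 0.031), a scale on which the changes of low genes come out smaller than their ratio of means. Calls of lower or higher needed an adjusted *p* (Benjamini-Hochberg) below 0.05 together with a change over 1.5-fold. By this rule 4.09% of all genes tested in hILOs were lower in A5-KO and 2.70% were higher, and all 3 tested members were lower.

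**Figure D1:**
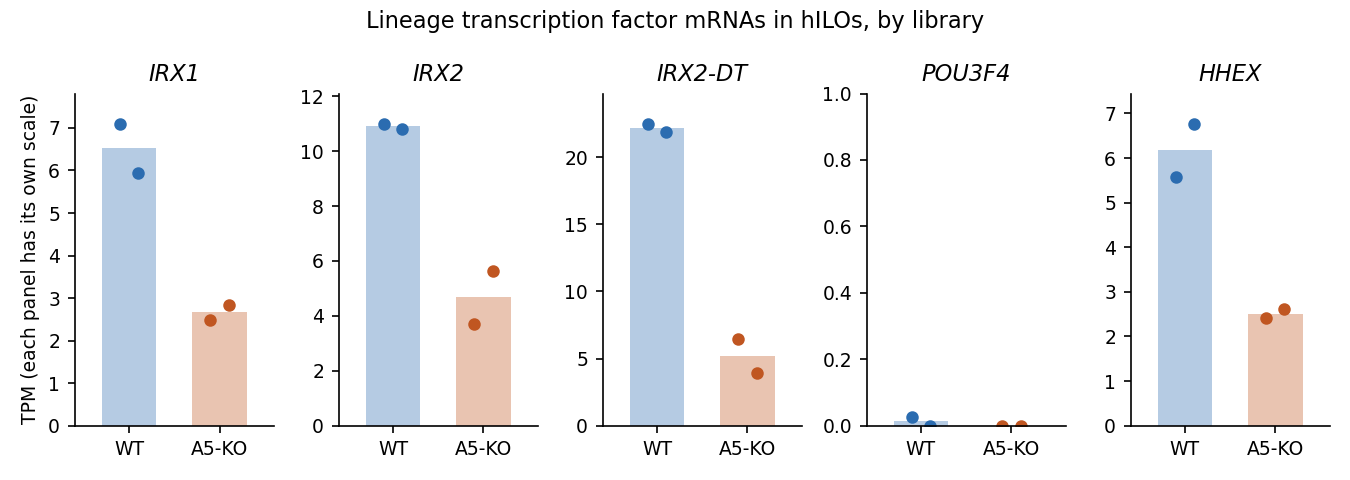
TPM of *IRX1*, *IRX2*, *IRX2-DT*, *POU3F4* and *HHEX* in the 4 hILO libraries; points are libraries, bars the means of 2, and each panel has its own scale. The A5-KO points lie below the WT points in every panel but that of *POU3F4*, where 3 of the 4 libraries are listed at 0.

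*IRX2* was at 11.0 and 10.8 TPM in WT against 3.71 and 5.63 TPM in A5-KO. It was the highest of the 4 members in each genotype, and its A5-KO libraries lay further apart than its WT libraries. The difference was -1.09 (standard error 0.20, limma adjusted *p* = 0.043). *IRX2-DT*, the divergent noncoding RNA, was at 22.5 and 21.9 TPM in WT against 6.44 and 3.91 TPM in A5-KO, a difference of -1.94 (standard error 0.23, limma adjusted *p* = 0.017). The noncoding RNA was therefore above *IRX2* itself in both WT libraries, at 2.04 times its level in each. In A5-KO the ratio was 1.74 in one library and 0.695 in the other.

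*HHEX* was at 5.58 and 6.77 TPM in WT against 2.41 and 2.61 TPM in A5-KO. The difference was -1.03 (standard error 0.16, limma adjusted *p* = 0.032), with no overlap between genotypes. *POU3F4* was listed at 0.0255 TPM in 1 WT library and at 0 in the other 3, so it was not tested. TPM keeps no depth, and how many reads lie behind these values is unknown. The order of the levels was *IRX2*, then *IRX1* and *HHEX*, then *POU3F4*, in both genotypes. *IRX1* and *HHEX* are neighbours in that order whose libraries overlapped: 6.52 ± 0.816 against 6.18 ± 0.843 TPM in WT and 2.66 ± 0.249 against 2.51 ± 0.142 TPM in A5-KO (SD, n = 2). *IRX2* was above both of them in every library.

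The 3 calls rest on 4 libraries. Leaving out any 1 of them (each of WT replicates 1 and 2 and A5-KO replicates 1 and 2 in turn) kept the direction and lost the call. The differences then ran from -1.15 to -0.92 for *IRX1*, from -1.34 to -0.84 for *IRX2* and from -1.15 to -0.91 for *HHEX*. Such a fit leaves 1 library in a genotype, and far fewer genes of any kind were called in it. *IRX2* also missed the threshold after median-of-ratios scaling (adjusted *p* = 0.054) and quantile normalization (adjusted *p* = 0.057). *IRX2-DT* kept its call under both of those scalings, with differences of -1.88 and -1.86, and lost it without WT replicate 1 (adjusted *p* = 0.093) or WT replicate 2 (adjusted *p* = 0.092) and without the filter on low values (adjusted *p* = 0.082). Other named genes were not refitted in this way.

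The proportions of *IRX1* and *IRX2* to *HHEX* overlapped between the genotypes in hILOs. The log2 ratio of *IRX1* to *HHEX* was 0.34 and -0.19 in the WT libraries and 0.04 and 0.12 in the A5-KO libraries, a difference between the genotype means of 0.00. The log2 ratio of *IRX2* to *HHEX* was 0.97 and 0.66 in WT and 0.60 and 1.08 in A5-KO, a difference of 0.03. With single libraries left out, the differences ran from -0.26 to 0.27 for *IRX1* and from -0.21 to 0.27 for *IRX2*, so a shift of this size could not be told from none with 2 libraries a genotype. An exact permutation test of 2 against 2 cannot give a two-sided *p* below 0.33, and none was run. The ratio of *POU3F4* to *HHEX* reflects only *HHEX* and the added pseudocount of 0.1, and it is not read here. *IRX2* was at 1.55 and 1.81 times *IRX1* in WT and at 1.49 and 1.98 times in A5-KO, which also overlapped.

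The hormone genes of the same cell types were lower too, by different amounts. *GCG*, which encodes glucagon, was at 2192 and 2270 TPM in WT against 1267 and 1266 TPM in A5-KO (difference -0.82, standard error 0.03, limma adjusted *p* = 0.0024). *SST*, which encodes somatostatin, was at 381.1 and 366.5 TPM in WT against 107.5 and 107.2 TPM in A5-KO (difference -1.79, standard error 0.04, limma adjusted *p* = 0.0019). Within a library, *IRX1* stood at 3.24 and 2.62 TPM per 1000 TPM of *GCG* in WT and at 1.96 and 2.24 in A5-KO, and *IRX2* at 5.02 and 4.74 in WT and at 2.93 and 4.45 in A5-KO. *HHEX* stood at 14.6 and 18.5 TPM per 1000 TPM of *SST* in WT and at 22.4 and 24.4 in A5-KO. The A5-KO ratios to *GCG* thus lay below the WT ratios, and those of *HHEX* to *SST* lay above, without overlap. For *IRX2* the nearest libraries stood at 4.74 and 4.45, while its A5-KO libraries ran from 2.93 to 4.45. These ratios were not tested, and an exact permutation test of 2 against 2 cannot give a two-sided *p* below 0.33. How often other pairs of genes part in this way was not counted, so no contrast of alpha and delta factors is read from them. In bulk RNA, fewer cells of a type and less RNA per cell cannot be told apart.

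Of 16 alpha cell genes listed beside the factors, 15 were tested in hILOs, 1 was lower (*GCG*) and 2 were higher. The 2 higher ones, *GC* (450.0 against 1734 TPM, difference 2.03, standard error 0.35, limma adjusted *p* = 0.037) and *TTR* (7539 against 18711 TPM, difference 1.31, standard error 0.02, limma adjusted *p* = 0.0011), encode plasma carrier proteins that hepatocytes also make. The median of the 15 differences was 0.06, beside -0.06 over all genes tested. Of 17 delta cell genes, 12 were tested, 3 were lower (*SST*, *NPTX2* and *EDN3*) and 3 were higher (*BCHE*, *MS4A8* and *PCP4*), with a median of 0.50. *NPTX2*, a neuronal pentraxin, was at 64.2 TPM in WT and at 15.9 TPM in A5-KO, and *BCHE*, butyrylcholinesterase, was at 11.6 and 29.7 TPM. *EDN3*, named after its values were seen, was at 3.86 and 0.264 TPM. Each list thus held genes called in both directions.

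**Figure D2:**
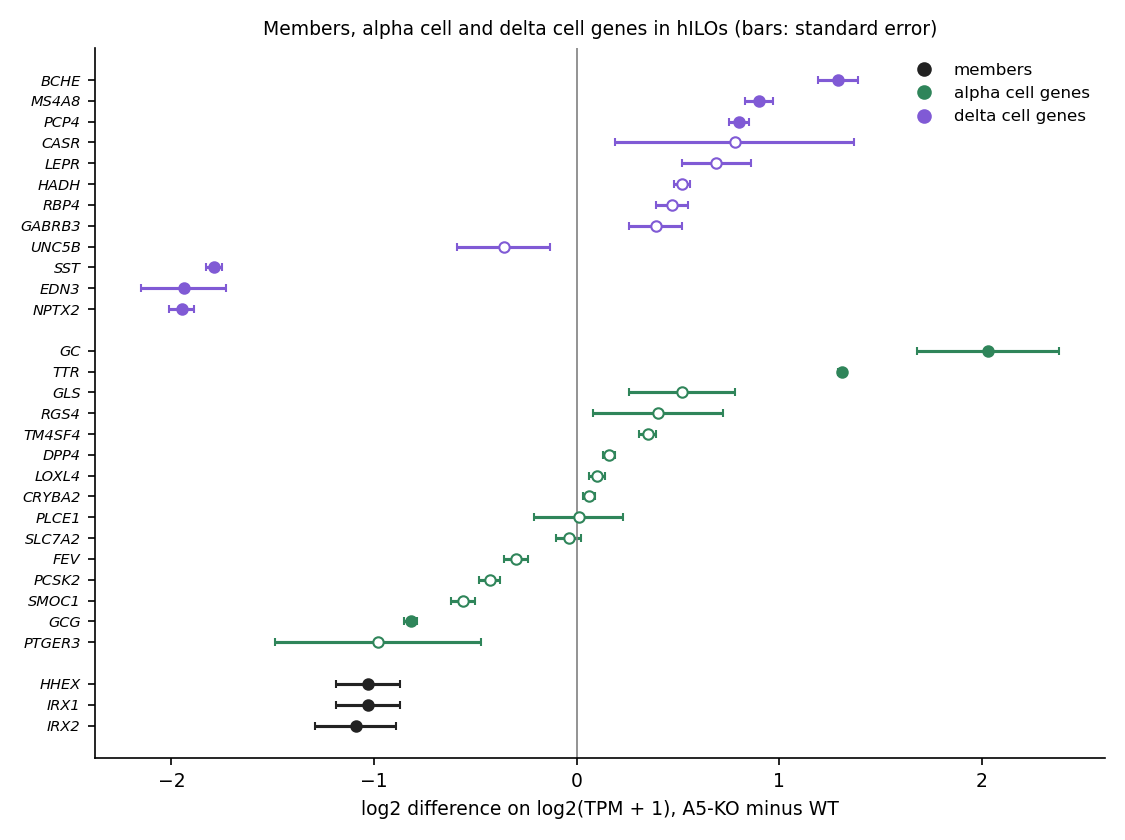
Differences between A5-KO and WT hILOs on the log2(TPM + 1) scale, with standard errors, for *IRX1*, *IRX2* and *HHEX* and for the tested alpha and delta cell genes; filled points were called at an adjusted *p* below 0.05 and over 1.5-fold. The 3 factors sit between -1.09 and -1.03, while the alpha cell genes run from *PTGER3* to *GC* at 2.03 and the delta cell genes from *NPTX2* at -1.95 to *BCHE* at 1.29.

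Among the other Iroquois and POU3F genes, 4 of 7 were tested in hILOs, with 1 lower and 1 higher. Both were named after their values were seen. *IRX3*, which sits in the second Iroquois cluster, was at 9.68 and 9.84 TPM in WT against 5.72 and 6.09 TPM in A5-KO (difference -0.64, standard error 0.11, limma adjusted *p* = 0.038). *POU3F1*, a relative of *POU3F4*, was at a mean of 2.01 TPM in WT and of 6.01 TPM in A5-KO (difference 1.22, standard error 0.16, limma adjusted *p* = 0.021). *IRX5*, also named after its values were seen, was at means of 1.40 and 0.661 TPM, a difference that missed the threshold (-0.53, limma adjusted *p* = 0.19). *IRX4*, the neighbour of *IRX2* on the far side of the cluster, averaged 0.0165 TPM in WT and was listed at 0 in A5-KO. The nearest protein-coding genes of *HHEX* are *KIF11*, a mitotic kinesin 34.6 kb away, and *EXOC6*, 131.2 kb away. *KIF11* was at means of 5.37 and 2.93 TPM (difference -0.70, limma adjusted *p* = 0.060) and *EXOC6* at 7.77 and 8.06 TPM (difference 0.05, limma adjusted *p* = 0.81), so neither was called. Of the outer neighbours, *ADAMTS16* beside *IRX1* was at 0.840 and 0.328 TPM, *SH3BGRL* beside *POU3F4* was at 135.8 and 136.1 TPM, and *CYLC1*, also beside *POU3F4*, was at 0.

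Of 10 other islet transcription factor genes, all were tested, 1 was lower and 2 were higher, with a median difference of -0.04. *NEUROD1* was at a mean of 208.6 TPM in WT against 351.1 TPM in A5-KO, *PAX4* at 54.2 and 82.3 TPM, and *NEUROG3*, which marks endocrine progenitors and was named after its values were seen, at 2.41 and 0.666 TPM. Markers of other cell types moved with the genotype as well. The 6 mesenchymal genes summed to 4.09 to 7.91 TPM in WT and to 25.6 to 28.5 TPM in A5-KO. Of these, 2 of 3 tested genes were higher (*POSTN* and *LUM*, the latter named after its values were seen). The 13 hepatoblast genes summed to 13159 to 13490 TPM in WT and to 14343 to 14731 TPM in A5-KO, with 2 lower and 3 higher, and the 8 beta cell genes, led by *INS*, to 13428 to 13447 and 7997 to 8008 TPM, with 1 of 7 lower. The 6 enterochromaffin-like genes had 2 lower and 1 higher, the 6 neuronal genes 1 of 4 lower, and the 6 acinar genes 1 of 3 higher. Of the 6 duct genes 1 was lower, although their sum was higher in A5-KO, at 699.0 to 709.3 TPM in WT and 951.8 to 996.8 TPM in A5-KO. The 6 endothelial genes were all under a mean of 1 TPM, with *ERG* at 0. The part of these cell types in the lower *IRX1*, *IRX2* and *HHEX* was not tested.

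In PPs, only *HHEX* of the 4 members was expressed at a level that could be tested. Values there are CPM, reads scaled to the total of the library, from which whole reads were recovered. *POU3F4* had 0 reads in all 16 libraries, which allows at most 0.0852 to 0.0983 CPM depending on the library (3 reads, counting error only). *IRX1* had 2 reads in 1 WT library and 1 read in 1 A5-KO library, both at 0 h, and none in the other 14. *IRX2* had 54 reads over the 16 libraries, 39 in the 8 WT and 15 in the 8 A5-KO libraries, with no more than 13 in any one (0.386 CPM). The WT libraries had 3 and 12 *IRX2* reads at 0 h, 1 and 2 reads at 1 h, 4 and 13 reads at 2 h, then 3 and 1 reads at 3 h. The A5-KO libraries had 6 and 5 reads at 0 h, 2 and 2 reads at 1 h, then no read at 2 or 3 h. The genotypes overlapped at 0 h, and no change is read from counts of this size. *IRX2-DT* had 7 reads, all in WT libraries. Per kb of exon, *HHEX* stood at a mean of 8.84 CPM in WT against 12.1 CPM in A5-KO at 0 h, where *IRX2* stood at 0.0674 and 0.0488 CPM.

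*HHEX* mRNA was higher in A5-KO PPs after 1 h of Act D and lower after 3 h, while at 0 and 2 h the difference missed the threshold. At 0 h it was at 25.2 and 19.4 CPM in WT against 33.9 and 27.2 CPM in A5-KO. Both A5-KO libraries were above both WT libraries, as for 29.0% of the 13911 genes tested, and the difference of 0.44 on the log2(CPM + 1) scale missed the threshold (standard error 0.15, limma adjusted *p* = 0.16). At this time 1.13% of genes were called lower and 1.57% higher in A5-KO; the higher genes numbered 218, and 127 without A5-KO replicate 1 or 143 without WT replicate 2.

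At 1 h *HHEX* was at 6.40 and 6.60 CPM in WT against 11.5 and 12.5 CPM in A5-KO. This difference, 0.79, was called (standard error 0.15, limma adjusted *p* = 0.0091), as were 3.19% of genes in that direction. Without the filter on low values it was not (adjusted *p* = 0.10).

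At 2 h *HHEX* was at 5.49 and 10.0 CPM in WT against 7.24 and 5.67 CPM in A5-KO, so that the WT libraries lay on either side of the A5-KO libraries (difference -0.19, standard error 0.29, limma adjusted *p* = 0.72). Without WT replicate 2, the higher library, the difference was 0.19 (adjusted *p* = 0.54), and without WT replicate 1 it was -0.57 (adjusted *p* = 0.026, under 1.5-fold). The WT libraries at 2 h differed more from each other over all genes, relative to counting error, than the replicates of any other condition.

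At 3 h *HHEX* was at 10.3 and 11.8 CPM in WT against 4.77 and 3.64 CPM in A5-KO. The difference was -1.22 (standard error 0.19, limma adjusted *p* = 0.0020). Lower expression in A5-KO was common at this time, with 16.6% of genes called lower. Lower genes made up 93.9% of the calls at 3 h, and 63.3% after quantile normalization, under which *HHEX* was still called (-0.84, adjusted *p* = 0.014).

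**Figure D3:**
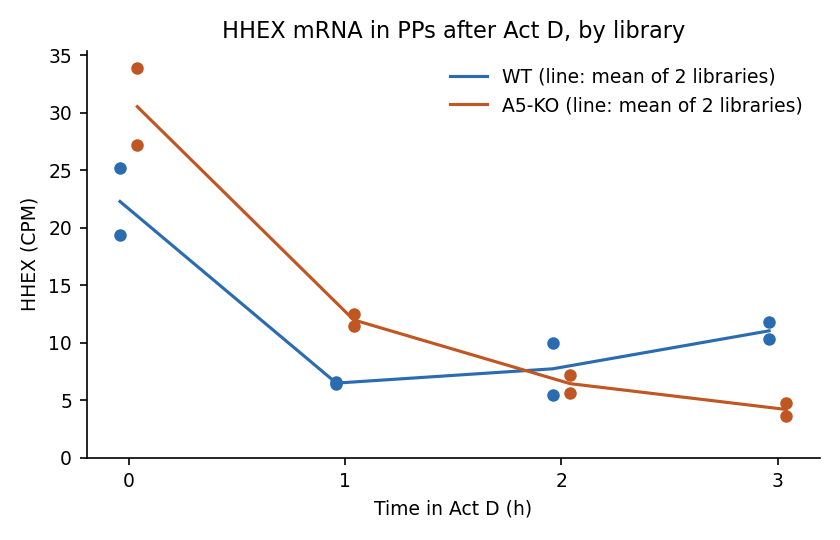
*HHEX* CPM in the 16 PP libraries against time in Act D; points are libraries and lines join the means of 2. The A5-KO line starts above the WT line, at 30.6 against 22.3 CPM, and falls to 4.20 CPM at 3 h, while the WT line falls to 6.50 CPM at 1 h and stands at 11.0 CPM at 3 h.

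The change of the genotype difference with time was tested in a limma fit over all 16 PP libraries, chosen after the *HHEX* values were seen. From 1 h to 3 h the difference between A5-KO and WT shifted by -2.01 (standard error 0.31, limma adjusted *p* = 0.0011), a test that 17.7% of genes passed in the same direction. From 0 h to 3 h it shifted by -1.66 (standard error 0.31, limma adjusted *p* = 0.0030), and from 0 h to 1 h by 0.35 (standard error 0.31, limma adjusted *p* = 0.79). Within WT, *HHEX* fell by 1.62 from 0 h to 1 h (standard error 0.22, limma adjusted *p* = 8.5e-05), and the later difference of 0.68 between 3 h and 1 h missed the threshold (standard error 0.22, limma adjusted *p* = 0.28). Within A5-KO, it fell by 1.27 from 0 h to 1 h (standard error 0.22, limma adjusted *p* = 0.00051) and by a further 1.33 from 1 h to 3 h (standard error 0.22, limma adjusted *p* = 0.00049).

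**Figure D4:**
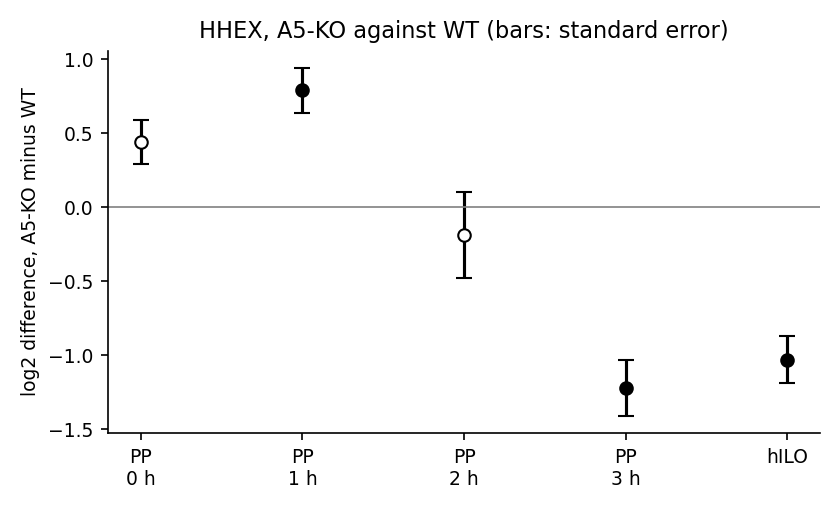
*HHEX* difference between A5-KO and WT on the log2 scale (log2(CPM + 1) in PPs, log2(TPM + 1) in hILOs), with standard errors; filled points were called. The difference is 0.44 and 0.79 in PPs at 0 and 1 h, -0.19 at 2 h, -1.22 at 3 h and -1.03 in hILOs.

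Against the mean of the 0 h libraries of the same genotype, the WT libraries held 28.7% and 29.6% of the *HHEX* CPM at 1 h, 24.6% and 44.9% at 2 h, then 46.0% and 53.0% at 3 h. The A5-KO libraries held 37.8% and 40.8% at 1 h, 23.7% and 18.6% at 2 h, then 15.6% and 11.9% at 3 h. In A5-KO each later time lay below the one before it, whereas both WT libraries at 3 h lay above both at 1 h. CPM is relative to the total mRNA left in the library, so these shares are not absolute amounts. The median gene at 3 h stood -0.27 to -0.10 log2 from the 0 h mean in the same 4 libraries. The WT values did not follow a straight line, and no half-life is given. The slope of log2(CPM + 0.1) was -0.28 per h in WT and -0.94 per h in A5-KO. The difference in slope, -0.66 per h, missed the threshold over the whole course (standard error 0.22, limma adjusted *p* = 0.094), while 2.61% of the 13620 genes tested had a steeper slope in A5-KO at an adjusted *p* below 0.05. It missed the threshold under 21 of 24 alternatives as well (adjusted *p* 0.086 to 0.53). The other 3 were -0.70 without WT replicate 1 at 2 h (adjusted *p* = 0.039), -0.85 without WT replicate 1 at 0 h (adjusted *p* = 0.020) and -0.61 from the 0 and 3 h libraries alone (adjusted *p* = 0.0012), under which 1359, 1442 and 2739 genes had a steeper slope in A5-KO, against 355 in the fit to all libraries. From the 0 and 1 h libraries alone it was 0.42, with an adjusted *p* of 0.53.

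The 5 genes whose log2(CPM + 0.1) followed that of *HHEX* most closely over the 16 PP libraries were *ID4* (Pearson *r* = 0.993), *C1orf116* (0.990), *ID1* (0.985), *KPNA2* (0.984) and *CEBPA* (0.983), out of 13620 genes compared. The 16 points share the fall after Act D, so these values describe the course and are not tested. *ID1* and *ID4* encode inhibitors of basic helix-loop-helix factors, *KPNA2* an importin and *CEBPA* a hepatic transcription factor that is also on the list of hepatoblast genes. *CEBPA* was at 33.2 and 23.1 CPM in WT against 39.0 and 34.9 CPM in A5-KO at 0 h. After 3 h it was at 9.96 and 12.0 CPM in WT against 4.12 and 2.75 CPM in A5-KO. *CEBPA* was picked for its correlation with *HHEX* over these same libraries, so a like arrangement of the genotypes was built into the choice. At the hILO stage *CEBPA* was at 238.1 and 239.5 TPM in WT against 216.5 and 208.7 TPM in A5-KO.

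Hepatoblast genes, markers of one of the other cell types known to express *HHEX*, were called higher in A5-KO PPs at 0 h in 4 of 11 tests and lower in none. Over all genes tested at 0 h, 1.57% were called higher. Their 13 values summed to 1391 to 1410 CPM in WT and to 2244 to 2247 CPM in A5-KO, led by *AFP*. *AFP* was at a mean of 557.4 CPM in WT against 1319 CPM in A5-KO (difference 1.24, standard error 0.06, limma adjusted *p* = 1.3e-05), *ALB* at 4.50 and 15.5 CPM and *FGB* at 3.82 and 16.1 CPM. *APOH* was at 0 in all of these libraries. Of 5 tested mesenchymal genes 4 were higher, with sums of 43.9 to 45.5 CPM in WT and 134.4 to 134.7 CPM in A5-KO, led by *POSTN* at 10.4 and 49.6 CPM. The part of either in the *HHEX* values was not tested.

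Endocrine genes were scarce in PPs. *GCG* was at 0 CPM in every library at 0 h, and *SST* averaged 1.06 CPM in WT against 0.952 CPM in A5-KO (difference -0.08, standard error 0.22, limma adjusted *p* = 0.88). Of the 16 alpha cell genes, 9 were tested at 0 h, and *TTR* and *DPP4* were higher with none lower (median -0.04). Of the 17 delta cell genes, 8 were tested, and 2 were higher, *BCHE* at 15.3 and 31.0 CPM among them, with none lower (median 0.03, equal to the median of all genes). Of the 10 islet transcription factors, 4 were tested and *RFX6*, which acts early in endocrine differentiation, was higher, at 4.18 and 12.6 CPM (difference 1.38, standard error 0.22, limma adjusted *p* = 0.0092). In the Iroquois and POU3F list, 2 of 7 genes were tested and neither was called. None of the tested duct (6), acinar (2), endothelial (2), neuronal (2), enterochromaffin-like (3) and beta cell (4) genes was called at 0 h.

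The mRNAs of the members differ in the letters that are often found at m6A sites. The MANE transcript of *HHEX*, of 1724 bases, has no GGACT, a common form of the m6A motif, whereas *IRX1* has 3, *IRX2* has 2 and *POU3F4* has 3. The median over 12150 genes tested for decay was 3. The *HHEX* transcript is short, longer than that of 16.7% of these genes, and the share of genes with no GGACT is not given. Per kb of transcript, *IRX1* has 1.44, *IRX2* 0.65 and *POU3F4* 0.78, beside a median of 0.921. The transcripts of *IRX1*, *IRX2* and *POU3F4* are 2080, 3079 and 3838 bases long, beside a median of 3472. ATTTA, the core of AU-rich elements that mark short-lived mRNAs, occurs 2 times in the 3′ UTR of *HHEX*, equal to the median, 7 times in that of *IRX2*, 4 times in that of *POU3F4* and not at all in that of *IRX1*. Other forms of the m6A motif were not counted, and m6A itself was not analysed here.

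*ALKBH5* checked the labels: it was at 78.8 and 81.9 TPM in WT hILOs and at 4.16 and 3.42 TPM in A5-KO hILOs, and in PPs all 8 A5-KO libraries were below all 8 WT libraries, with group means between 8.20 and 19.0 CPM in A5-KO and between 41.0 and 160.6 CPM in WT. The recovered depth was 30516384 to 35206514 reads per PP library. The hILO values summed to 924887 and 922614 TPM in WT and to 897038 and 887320 TPM in A5-KO, and the main fit did not rescale these lower A5-KO totals. Lower genes made up 60.2% of the hILO calls in the main fit, 52.2% after median-of-ratios scaling and 50.8% after quantile normalization. With 1 knockout clone, the effect of the clone and that of *ALKBH5* cannot be told apart. The *p*-values measure only the spread between libraries labelled as replicates of that clone and of WT. The study describes the PP decay series as biological replicates, while the labels do not say whether the hILO replicates were separate cultures. The A5-KO hILO replicates were close for *INS* (7604.8 and 7605.8 TPM) and *GCG* (1266.9 and 1266.0 TPM) and further apart for *IRX2* (3.71 and 5.63 TPM). If they were not separate cultures, the hILO *p*-values leave out the spread between cultures. This was not tested. Levels of the 2 stages come from tables that were normalized separately, so *HHEX* was not compared between PPs and hILOs by a test.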

How the data were processed

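For hILOs, TPM per gene were deposited by the authors, from reads trimmed with fastp, mapped on GRCh38 by HISAT2 (2.1.0) and quantified by StringTie. The PP tables deposited by the authors hold CPM per gene and no ERCC spike-ins; the counter is not given in the sources used here. CPM values were whole multiples of 1 read in 100% of cases (within 0.01 reads), which gave back the reads. Spike-in scaling was not repeated.

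Genotypes were compared with limma (3.58.1) in R (4.3.3), using a trended eBayes, on log2(value + 1) where the mean reached 1, separately for hILOs and each PP time, and slopes over 16 libraries on log2(CPM + 0.1). Values were adjusted over all genes tested. edgeR (4.0.16) and DESeq2 (1.42.0) on recovered reads, other scalings, pseudocounts, filters, a replicate block and leaving out each library were alternatives. The steps were also run on simulated data. These gave every gene of a stage the same added spread, so they do not speak to the spread of the members. Members and gene lists were chosen with earlier results of these data known. Named genes were the members, *IRX2-DT*, *GCG*, *SST*, *ALKBH5*, neighbours, the 5 closest correlates and at most 3 called genes per list and direction. Such a called gene averaged 10 or more in its higher genotype. Others, among them genes listed at 0, were named after their values were seen. Promoters came from RefSeq (all 4 members matched) and gene models from GENCODE. Some listed genes were removed from the lists and are not reported here.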

Additional observations from a re-analysis of the deposited data

Results flagged for a closer look

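For *HHEX* the A5-KO libraries lay below the WT libraries in hILOs and above them in PPs at 0 h, of which the second was not called. In hILOs both A5-KO libraries were below both WT libraries (-1.03 on the log2 scale, limma adjusted *p* = 0.032), and in PPs at 0 h both were above (0.44, limma adjusted *p* = 0.16), as for 29.0% of genes. The difference between the stages was not tested, since the tables are in different units.

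Within the Act D course, the *HHEX* difference between A5-KO and WT changed sign, from higher at 1 h to lower at 3 h. The change between these times was -2.01 on the log2 scale (standard error 0.31, limma adjusted *p* = 0.0011, 2 libraries per genotype and time). This contrast was chosen after the *HHEX* values were seen. It was passed in the same direction by 17.7% of the 13620 genes tested, so it is not particular to *HHEX*. Leaving out each library at 1 or 3 h in turn gave -2.17 to -1.85.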

How the results depend on the processing

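In hILOs the directions of *IRX1*, *IRX2* and *HHEX* held under all 9 alternatives each, and the calls did not always. Without the filter on low values the differences were -1.03, -1.09 and -1.03 (limma adjusted *p* = 0.10, 0.14 and 0.10). *IRX2* was -1.03 after median-of-ratios scaling and -1.0 after quantile normalization, both not called. With single libraries left out, *IRX1* ran from -1.15 to -0.92, *IRX2* from -1.34 to -0.84 and *HHEX* from -1.15 to -0.91, none called. Under a replicate block the differences were -1.03, -1.09 and -1.03, none called (limma adjusted *p* = 0.076, 0.072 and 0.068). The numbers were not taken to pair the samples, since same-numbered deviations correlated at -0.00526 in hILOs and between -0.0651 and 0.171 in PPs. In PPs the block kept every *HHEX* call; at 0 h its difference of 0.44 had an adjusted *p* of 0.0022 and stayed under 1.5-fold.

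*HHEX* in PPs ran from 0.26 to 0.62 at 0 h, from 0.74 to 0.84 at 1 h, from -0.57 to 0.19 at 2 h and from -1.37 to -1.06 at 3 h with single libraries left out; at 2 h it was 0.19 without WT replicate 2 and -0.57 without WT replicate 1. At 1 h it lost the call without the filter (0.79). The slope difference ran from -0.85 to -0.52 with single libraries left out, was -0.61 from 0 and 3 h only and 0.42 from 0 and 1 h only. The ratios of *IRX1* and *IRX2* to *HHEX* ran from -0.26 to 0.27 and from -0.21 to 0.27. The cause of these changes was not tested.

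Counts of genes moved more: lower genes in hILOs were 707 and between 96 and 714 over the alternatives, higher genes 467 and between 83 and 572, lower genes in PPs at 0 h 157 and between 77 and 266, higher genes 218 and between 87 and 365, lower genes at 3 h 2234 and between 985 and 2661, and steeper slopes 355 and between 0 and 2739. Scaling moved the median gene at 3 h from -0.12 to -0.02 or 0.05. At 1 h lower genes were 27.2% of calls and 37.9% after quantile normalization. Depth limits *IRX1*, *IRX2* and *POU3F4* in PPs, and TPM keeps none for hILOs.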
